A study of Ovis aries with 10 samples.

Results

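INHBA, ACVR1, ACVR2A, ACVR2B and SMAD1, a ligand subunit, 3 receptors and an intracellular mediator of activin and bone morphogenetic protein (BMP) signalling, were followed in the left ventricle of fetal sheep. Every array probe whose gene name, accession or description gave one of these 5 genes was taken. These are 5 of the 1023 genes named on the array, read by 8 of its 15008 non-control probes: 2 each for INHBA, ACVR1 and ACVR2A, and 1 each for ACVR2B and SMAD1. The 5 genes were picked with their values in the treatment comparison already known. Their cortisol and control values are therefore given as a description. The limma fit over all probes included them, but its outcome for them is given for scale only.

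Left ventricular free wall came from singleton fetuses of ewes that received either vehicle (control) or 1 mg/kg of cortisol per day as a continuous infusion from about day 115 of pregnancy. Cortisol is the main glucocorticoid of sheep, and here the mother, not the fetus, was infused. Ewes were killed soon after labour began, at 139 to 144 days, near term, with 7 ewes per group, of which 5 fetuses per group were analysed. Each fetus had 1 single-colour Agilent array, and p-values measure the spread between these arrays. No strain, genotype or fetal sex was used here. The title, source and tissue label of every sample name the left ventricle, but 9 of the 10 free-text descriptions name the biceps femoris.

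Activin A is a dimer of 2 chains encoded by INHBA, and the same chain paired with an inhibin alpha chain forms inhibin A. Activins and BMPs bind type II receptors such as ACVR2A and ACVR2B, which then activate a type I receptor. ACVR1 is a type I receptor that mainly carries BMP signals, whereas ACVR1B is the usual type I receptor for activin. BMP receptors phosphorylate SMAD1 and its relatives, and activin receptors phosphorylate SMAD2 and SMAD3, after which each pairs with SMAD4 and regulates transcription. In the heart these pathways act in valve and septum formation and in the growth of muscle and matrix.

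A level here is the log2 of a spot's processed intensity minus the 75th percentile of that array, so 0 is the brightness of the 75th percentile. That percentile lay between 217 and 286 scanner units on control arrays and between 177 and 241 on cortisol arrays. The share of spots well above background was 63.5% to 73.2%, and 0 spots were saturated. Replicates 1 to 3 of both groups lay on slide 1 and replicates 4 and 5 of both on slide 2. On cortisol replicate 4, an area of the array had lost signal, with a median of -0.91 in log2 relative to the other arrays over 666 spots (spots unflagged and above background on all 10 arrays). The probes of ACVR2B and SMAD1 lay inside that area, so their values are given with and without it. Of the red cell gene HBB, cortisol replicate 1 had a level of 1.99 against 5.37 to 6.58 on the other cortisol arrays. Control arrays had 3.18 to 6.07.

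All 8 probes were 60 bases long, and the sequences of INHBA and ACVR2A are shown because they decide how far a pair of probes counts as separate evidence. The INHBA probes (A_70_P051056 and A_70_P051057) began at positions 1221 and 1220 of the same transcript record. Capitals mark the run of 59 bases that they share:

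INHBA probe 1: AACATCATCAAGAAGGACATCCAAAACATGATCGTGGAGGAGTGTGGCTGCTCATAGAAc

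INHBA probe 2: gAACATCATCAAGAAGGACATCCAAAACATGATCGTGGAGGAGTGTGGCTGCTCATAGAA

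Both therefore read the same stretch of the transcript from different places on the array, at row 17, column 9 and at row 57, column 44. They repeat a measurement of the same RNA and add no second region of the gene.

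The ACVR2A probes (A_70_P051216 and A_70_P051217) began at positions 1482 and 1422, exactly 60 bases apart, and so read adjoining stretches with no shared run of 16 bases:

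ACVR2A probe 1: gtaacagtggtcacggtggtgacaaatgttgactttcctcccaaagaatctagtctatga

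ACVR2A probe 2: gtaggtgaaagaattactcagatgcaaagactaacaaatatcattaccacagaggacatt

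Their GC content differed, at 43.3% for probe 1 and 35% for probe 2. Both INHBA probes, both ACVR1 probes and the SMAD1 probe had 45%, and the ACVR2B probe had 55%. None of the 8 shared a run of 16 bases with a probe of another gene. Probes differ in brightness per transcript, so levels of different genes were not ranked against each other.

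All 8 probes were well above background on 10 of 10 arrays. In limma 0 of the 8 passed an adjusted p of 0.05, against 0.00% of the 10261 probes tested (3.25%, or 333 probes, at an unadjusted p under 0.05). For 0 of the 8 did every cortisol array lie above or below every control array, against 0.361% of all tested probes lying above and 0.478% lying below. The members were chosen on this contrast, so these shares are given for scale only. The arrays hold RNA of all cells of the wall, so fewer cells of a type and less RNA per cell cannot be told apart in any value below.

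The level of INHBA, the activin beta A chain, was higher on average with cortisol. By probe 1 the level in control replicates 1 to 5 was -2.80, -3.15, -2.30, -2.01 and -2.09. In cortisol replicates 1 to 5 it was -1.45, -2.24, -2.03, -1.02 and -1.04. All 5 cortisol values lay above the control mean and 3 of them, replicates 1, 4 and 5, above the highest control value, while replicates 2 and 3 fell within the control range. The control mean was -2.47 ± 0.49 (SD, n = 5) and the cortisol mean -1.56 ± 0.56 (SD, n = 5), a difference of 0.91 ± 0.30 (SE) or 1.88-fold. In scanner units the processed intensity ran from 32.3 to 56.1 in controls and from 39.0 to 117 with cortisol, so the gene was read at modest brightness.

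Probe 2 of INHBA gave much the same picture. Its control levels were -2.69, -3.48, -2.30, -1.64 and -2.19, and its cortisol levels -1.74, -2.21, -1.97, -1.12 and -0.97. Only cortisol replicates 4 and 5 lay above the highest control, replicate 4. The means were -2.46 ± 0.68 (SD, n = 5) and -1.60 ± 0.54 (SD, n = 5), a difference of 0.86 ± 0.35 (SE), or 1.81-fold.

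Part of the overlap of INHBA between groups followed the slides. On slide 1 the 3 control arrays spanned -3.15 to -2.30 and the 3 cortisol arrays -2.24 to -1.45. On slide 2 the 2 control arrays spanned -2.09 to -2.01 and the 2 cortisol arrays -1.04 to -1.02. Within each slide the groups did not overlap, and the lowest cortisol array of slide 1 was only just above the highest control array there. The cortisol minus control difference was 0.84 on slide 1 and 1.02 on slide 2, and 0.91 with slide as a block. Slide 2 was higher than slide 1 by 0.79 for probe 1 and by 0.92 for probe 2, a slide effect that did not pass in limma when fitted beside treatment (adjusted p = 0.386 for each). Of the 8 probes, 3 had every cortisol level above every control level within each slide, both INHBA probes and SMAD1, against 0.838% of all tested probes. In the opposite direction there were 0 of 8, against 0.877%. These shares too are for scale only, since the members were chosen on this contrast. The 2 INHBA probes repeat a measurement of the same RNA. On slide 2 the lowest SMAD1 cortisol level was -3.56 and the highest control level -3.58.

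**Figure D1:**
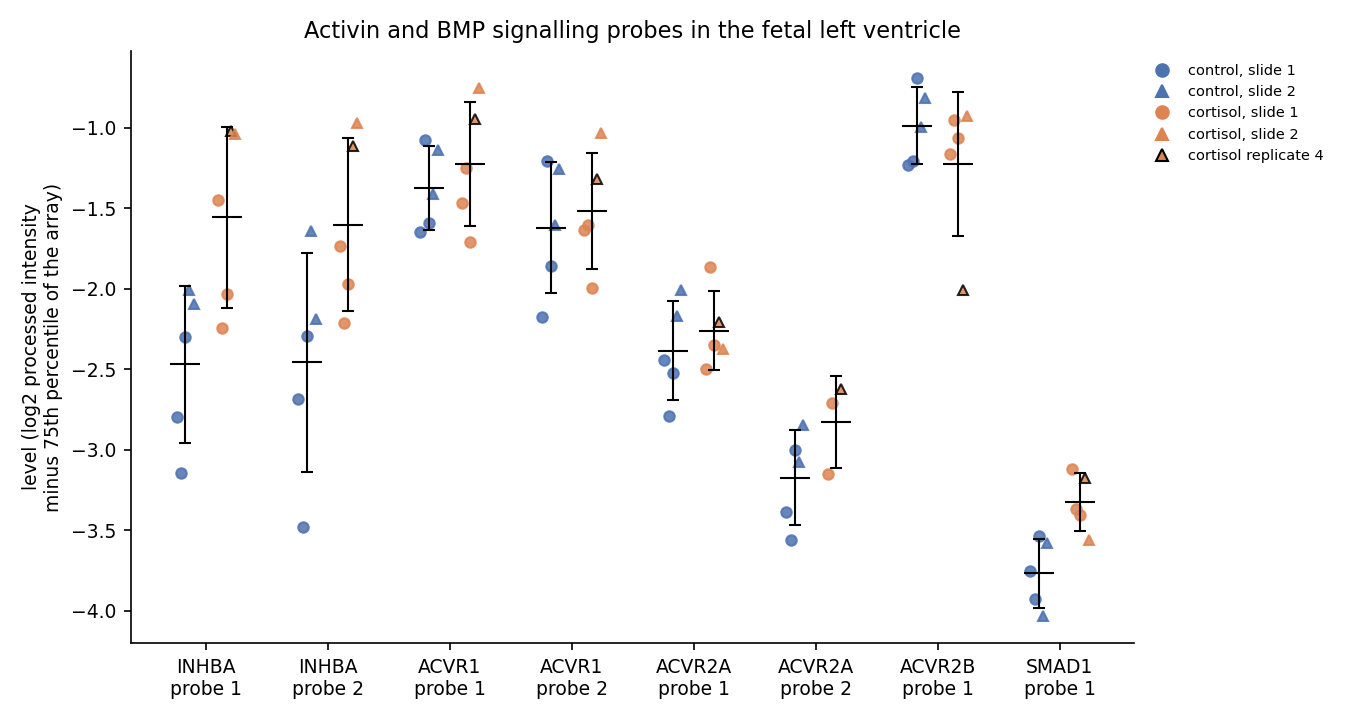
Level of each of the 8 probes (log2 processed intensity minus the 75th percentile of the array) in 5 control (blue) and 5 cortisol (orange) fetuses; circles are slide 1, triangles slide 2, and the outlined triangle is cortisol replicate 4. Horizontal bars are means and error bars 1 SD. INHBA and SMAD1 sit higher with cortisol with overlapping groups, and the single low ACVR2B point at -2.01 is cortisol replicate 4.

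Repeat measurements of INHBA on the same array were close. Over the 10 arrays the levels of probes 1 and 2 had a Pearson correlation of 0.96, and 0.94 after group means were removed, with differences between them from -0.37 to 0.33. These correlations describe repeated spots of the same RNA and carry no test. In the authors' deposited table the same pair correlated at 0.69, and at 0.51 within groups. That gap rested on cortisol replicate 4, where the deposited values were 7.38 for probe 1 and 6.23 for probe 2, a difference of 1.15. On that array the uncorrected median spot intensity was 151.5 for probe 1 and 81.0 for probe 2, while the processed intensity was 87.3 and 81.8. The spots around each INHBA probe there had a median of -0.06 and -0.14 relative to the other arrays.

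**Figure D2:**
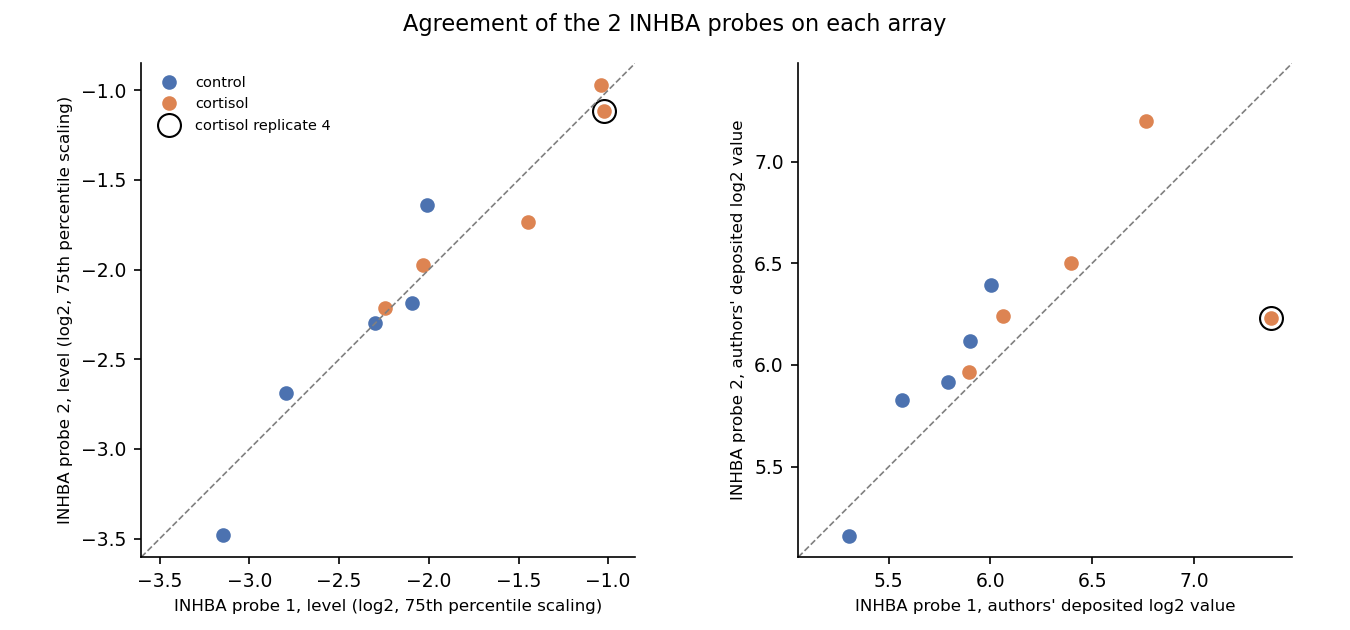
Probe 2 of INHBA plotted against probe 1 on each of the 10 arrays, as scaled levels (left, log2) and as the authors' deposited log2 values (right); the dashed line is equality and the ring is cortisol replicate 4. On the left all points lie within -0.37 to 0.33 of equality, and on the right the ringed array lies off it by 1.15.

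ACVR1, the type I receptor mainly used by BMPs, had similar means in both groups. By probe 1 the control levels were -1.65, -1.07, -1.60, -1.41 and -1.14. The cortisol levels were -1.47, -1.25, -1.71, -0.95 and -0.75. The cortisol arrays held both the lowest value, replicate 3, and the highest, replicates 4 and 5, with replicates 1 and 2 inside the control range. The means of -1.37 ± 0.26 (SD, n = 5) and -1.23 ± 0.39 (SD, n = 5) differed by 0.15 ± 0.20 (SE). The difference was -0.04 within slide 1 and 0.42 within slide 2. Probe 2 ranged from -2.17 to -1.21 in controls and from -1.99 to -1.03 with cortisol, a difference of 0.10 ± 0.22 (SE). The ACVR1 probes correlated at 0.94 over the 10 arrays, probe 1 lying higher by 0.27 on average.

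ACVR2A, a type II receptor for activins and BMPs, also overlapped between the groups. Its probe 1 gave control levels of -2.44, -2.79, -2.52, -2.17 and -2.01. With cortisol they were -2.50, -1.86, -2.35, -2.21 and -2.38. Only cortisol replicate 2 lay above every control. The means were -2.39 ± 0.31 (SD, n = 5) and -2.26 ± 0.24 (SD, n = 5), a difference of 0.13 ± 0.17 (SE) that took opposite signs on the slides, 0.35 on slide 1 and -0.20 on slide 2. Probe 2 was dimmer, with control levels from -3.56 to -2.84. Its spots on cortisol replicates 3 and 5 were marked as unreliable by the scanner software and left out, and the remaining cortisol levels were -3.15, -2.71 and -2.62. The difference was 0.35 ± 0.20 (SE) over these 3 cortisol arrays and 0.27 with both spots kept. The highest of the 3, at -2.62, was cortisol replicate 4. There the 85 spots around the probe had a median of 0.43 relative to the other arrays, against -0.12 to 0.02 elsewhere. Without cortisol replicate 4 the difference was 0.24, which rests on cortisol replicates 1 and 2 alone. On the 8 arrays with a value from each, the ACVR2A probes correlated at 0.80, and probe 1 was higher by 0.73 on average.

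ACVR2B, the other type II receptor, had a lower mean with cortisol that came from a single array. The control levels were -1.23, -1.20, -0.69, -0.99 and -0.82. The cortisol levels were -1.17, -0.95, -1.07, -2.01 and -0.93. Cortisol replicate 4 stood apart below the other 9 arrays, which lay between -1.23 and -0.69. The means of -0.99 ± 0.24 (SD, n = 5) and -1.22 ± 0.45 (SD, n = 5) gave a difference of -0.24 ± 0.21 (SE), and -0.04 without the area of lost signal or without the whole of cortisol replicate 4. The probe lies at row 73, column 46, and the 69 such spots around it on that array (within 8 rows and 4 columns) had a median of -1.04 relative to the other arrays, against 0.04 to 0.19 on the other arrays. The ACVR2B spot and its surroundings were thus low together on that array.

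SMAD1, the transcriptional mediator of BMP receptors, had a slightly higher mean level with cortisol and little spread. The control levels were -3.75, -3.93, -3.54, -4.04 and -3.58. The cortisol levels were -3.12, -3.37, -3.41, -3.18 and -3.56. Cortisol replicates 1 to 4 lay above all controls, while replicate 5 fell below the highest control by a small margin. In the authors' deposited values replicates 1 to 3 lay above all controls. Replicates 4 and 5, at 4.86 and 5.00 there, lay within the control range of 4.79 to 5.11. The means were -3.77 ± 0.21 (SD, n = 5) and -3.33 ± 0.18 (SD, n = 5), a difference of 0.44 ± 0.13 (SE), or 1.36-fold. It was 0.44 within each slide and 0.40 without cortisol replicate 4, whose SMAD1 spot also lay in the area of lost signal, with a median of -0.36 for the 80 spots around it.

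The SMAD1 spot was dim, and its difference depended on the background correction. The median spot intensity was only 1.66 to 2.28 times the local background, and the processed intensity ran from 13.2 to 20.7 in controls and from 17.8 to 22.6 with cortisol. The SMAD1 difference was 0.19 with the normexp background correction and 0.21 by the deposited values of the authors, 0.48 with quantile and 0.46 with median scaling, and 0.18 without scaling between arrays. The 75th percentile of the cortisol arrays was lower, so the median of all tested probes differed by -0.26 without scaling and by -0.00 with it. Relative to that median the SMAD1 difference was 0.44 both with and without scaling, and 0.13 with normexp. Scaling moves all probes of an array by the same amount, so the match with and without it follows from the arithmetic and is no separate evidence.

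The same choices left INHBA higher with cortisol but moved the size of its difference. By probe 1 it was 0.66 without scaling, 0.55 with normexp and 0.79 by the deposited values of the authors, which hold the high probe 1 value of cortisol replicate 4. By probe 2 it was 0.60, 0.42 and 0.55. The probe 1 difference ran from 0.74 to 1.08 as each array was left out in turn. Relative to the median of all tested probes, probe 1 had 0.92 both with and without scaling, and 0.49 with normexp. ACVR1, ACVR2A and ACVR2B had -0.11, -0.13 and -0.49 without scaling, which lowers all probes. Relative to the median of all tested probes they had 0.15, 0.13 and -0.23 both with and without it. As for SMAD1, such a match with and without scaling follows from the arithmetic.

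**Figure D3:**
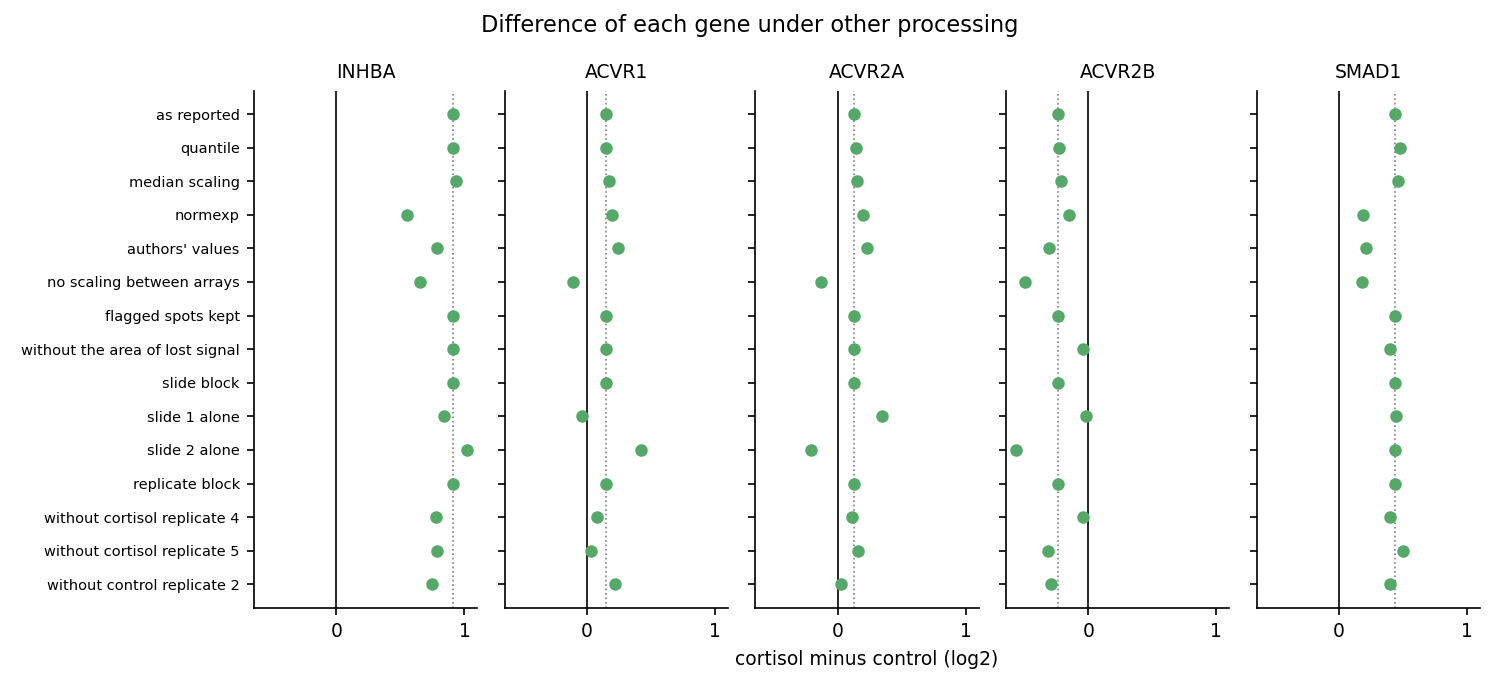
Cortisol minus control difference (log2) of the brightest probe of each gene under the reported processing and 14 others; the solid line is 0 and the dotted line the reported value. INHBA runs from 0.55 to 1.02, SMAD1 falls to about 0.2 in 3 of the settings, ACVR1 and ACVR2A cross 0 on 1 slide and without scaling, and ACVR2B reaches -0.04 without the area of lost signal.

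The level of INHBA was also set against its receptors on the same array, a comparison in which the scaling factor of the array cancels. Each ratio reuses the INHBA levels given above, so a higher ratio with cortisol is no separate evidence. The log2 ratio of INHBA to ACVR1 was -1.15, -2.07, -0.71, -0.60 and -0.96 in control replicates 1 to 5. It was 0.02, -0.99, -0.32, -0.07 and -0.29 in cortisol replicates 1 to 5. Cortisol arrays other than replicate 2 lay above all controls. The means of -1.10 ± 0.59 (SD, n = 5) and -0.33 ± 0.40 (SD, n = 5) differed by 0.77. For INHBA to ACVR2A the difference was 0.79, again with 4 of 5 cortisol arrays above all controls, and it was 0.49 on slide 1 and 1.23 on slide 2.

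The ratio to ACVR2B carried the lost signal. It differed by 1.15 between groups and by 0.82 without the area. Cortisol replicate 4 had a ratio of 0.99 where the other cortisol arrays had -1.29 to -0.11. Against the mean of ACVR1 and ACVR2A, whose probes lie outside the area, the INHBA difference was 0.78, with 0.69 on slide 1 and 0.91 on slide 2. Against SMAD1, which leaned the same way, it was 0.47, and 2 of 5 cortisol arrays lay above all controls. Between the type II receptors, the ratio of ACVR2A to ACVR2B differed by 0.36, and by 0.15 without the area.

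**Figure D4:**
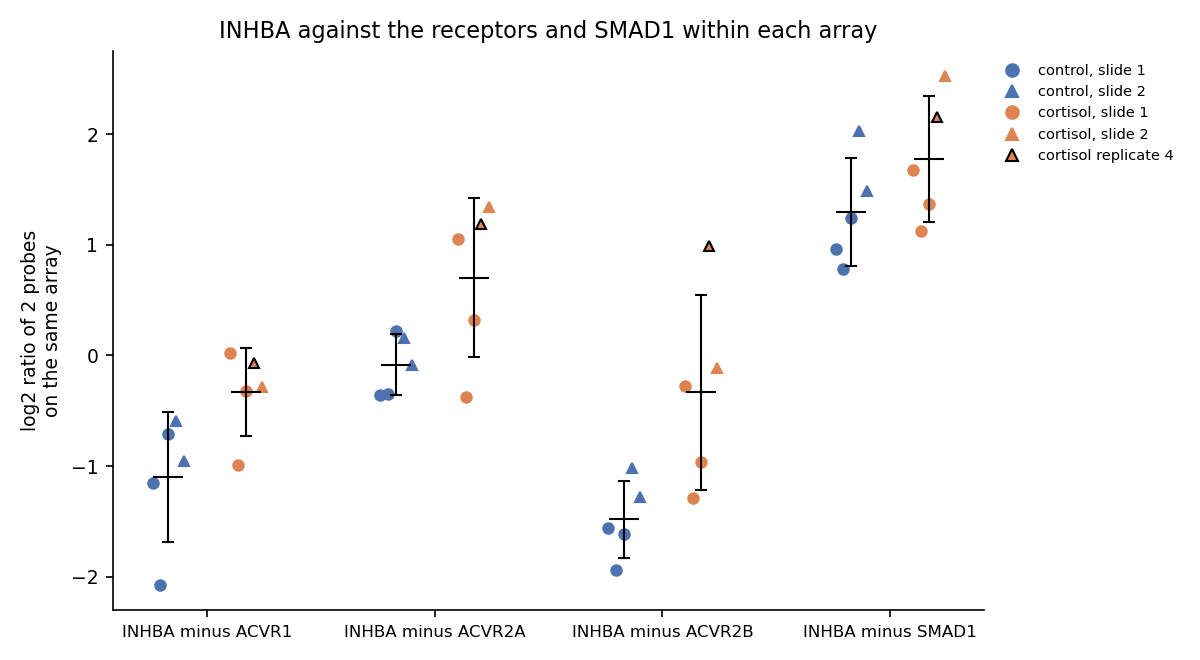
Log2 ratio of the INHBA probe to the probe of ACVR1, ACVR2A, ACVR2B or SMAD1 within each array, by group and slide, with mean and SD bars; heights differ between ratios because probes differ in brightness, so only shifts between groups within a ratio can be read. The INHBA to ACVR1 ratio is higher by 0.77 with cortisol, and the highest INHBA to ACVR2B point, at 0.99, is cortisol replicate 4.

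The members also differed in how much they varied between arrays of the same group. The within-group SD of INHBA probe 1 was 0.53, larger than that of 88.5% of the 1578 tested probes of similar level (within 0.5 log2). SMAD1 had 0.20, larger than only 4.71% of 1294 probes of its level. ACVR1 (0.33), ACVR2A (0.28) and ACVR2B (0.36) lay at 68.5%, 48.0% and 74.6% of probes of their level, the last with cortisol replicate 4 included. Part of the INHBA spread was the gap between slides. With group and slide means removed, the SD was 0.34 for INHBA, 0.25 for ACVR1, 0.23 for ACVR2A, 0.37 for ACVR2B and 0.22 for SMAD1. These were larger than the SD of 70.7%, 51.9%, 35%, 78.5% and 12.8% of probes of similar level. SMAD1 thus remained the lowest, and INHBA no longer stood above ACVR2B. The ACVR2B value again included cortisol replicate 4, whose spot lies in the area of lost signal.

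Whether the 5 genes moved together between fetuses was tested on deviations from group means, which the choice of members did not use. Over the 10 pairs of genes, 0 passed an exact permutation test of Pearson's r with Benjamini-Hochberg adjustment (adjusted p = 0.898 for every pair, and 0 pairs at an unadjusted p under 0.05). The strongest pair was INHBA with ACVR1, with r = 0.39 (exact permutation p = 0.311, n = 10) and Spearman's rho = 0.37 (exact permutation p = 0.365, n = 10). Without the 2 arrays farthest from the INHBA median, r was 0.86. The sign turned once slides were separated. Within slide 1, over 6 arrays, it was -0.53, and with group and slide means removed -0.52 (exact permutation p = 0.306). INHBA with SMAD1 had r = 0.16 (exact permutation p = 0.653) and rho = 0.02 (exact permutation p = 0.972), but 0.97 within slide 1 and 0.58 with group and slide means removed (exact permutation p = 0.0556). It was 0.05 without the area of lost signal, -0.04 after quantile scaling and -0.65 by the deposited values of the authors, so the sign of this pair depended on the processing. Slide 2, with 4 arrays, was too small for a value of its own. The number of fetuses limits what such correlations can show.

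The genes most alike to each member were ranked over 884 tested probes of 601 named genes by the correlation of deviations from group means over 10 arrays, as a description with no p. For INHBA they were GRIA3, an AMPA glutamate receptor subunit, at 0.92, FOS, an immediate early transcription factor, at 0.87, and the integrin ITGB5 at 0.84, whose other probe had 0.42. Nearest to ACVR1 were CAV1, the main protein of caveolae, at 0.86, PDIA5 at 0.82 and GUCY1B1, a subunit of the nitric oxide receptor, at 0.80, and the other CAV1 probe had only 0.20. Nearest to ACVR2A were LOC443144, listed as the mineralocorticoid receptor, at 0.79, RTP4 at 0.78 and TXNDC17 at 0.77. ACVR2B had NRF-2, the ribosomal protein RPS25 and PTGS1 at 0.94, 0.94 and 0.93. These fell to 0.79, 0.73 and 0.76 without cortisol replicate 4. SMAD1 had ARNT at 0.87, the calpain CAPN3 at 0.79 and UNC, listed as urocortin, at 0.78. Second probes of NRF-2, RPS25, ARNT and UNC had 0.16, -0.37, -0.12 and -0.26, well below those of the probes ranked. The arrays share slides and scaling, and median correlations over all candidates lay between -0.08 and 0.08.

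Other genes of the pathway showed no call. Of 119 further ligands, receptors, SMADs and their regulators, extracellular antagonists and target genes listed, 32 had a probe under their name and 24 were tested. Of these 24, 15 were higher and 9 lower with cortisol, 0 passed in limma (smallest adjusted p = 0.990) and 1 had an unadjusted p under 0.05. Their median difference was 0.07 by the brightest probe of each gene. Over all 40 tested probes of these genes it was 0.02, with 21 higher and 19 lower, against -0.00 over all tested probes. Every probe of BMP2, BMP15, MSTN, ACVR1B and CHRD was well above background on 0 of 10 arrays. ACVR1B is the type I receptor that activin uses, so only part of the activin receptor complex could be followed, and both SMAD3 probes were well above background on just 1 array each.

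Among the ligands, 4 of 6 were higher, with a median of 0.07. BMP6, a BMP of endothelial and other cells, had 0.44 ± 0.24 (SE) and its other probe 0.54, while TGFB1 had -0.31 ± 0.20 (SE) and BMP7 -0.18 ± 0.18 (SE). Other receptors had a median of 0.03, with TGFBR1, the type I receptor for TGF-beta, at 0.19 ± 0.15 (SE) and -0.09 by its other probe. The BMP type I receptor BMPR1B had -0.08 ± 0.36 (SE) and TGFBR2 0.03 ± 0.18 (SE), the latter with values on 3 cortisol arrays. In limma each of these 6 had an adjusted p of at least 0.990.

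All 4 other tested SMADs had a mean above that of controls, with a median of 0.12, each by its brightest probe. SMAD4, the partner of the others, had 0.02 ± 0.14 (SE), and -0.30 by its other probe, whose spot falls within the area of lost signal and gave 0.19 once it was left out. SMAD5, which works beside SMAD1, had 0.13 ± 0.13 (SE) with values on 4 cortisol arrays. SMAD2, which carries activin and TGF-beta signals, had 0.10 ± 0.11 (SE). SMAD7, an inhibitory SMAD, had 0.26 ± 0.28 (SE) but -0.20 by its other probe.

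The extracellular antagonists and matrix binders split 2 higher and 3 lower, with a median of -0.20. NOG (noggin), which traps BMPs, had -0.28 ± 0.23 (SE). BAMBI, a decoy receptor, had -0.23 ± 0.31 (SE), and BGN, a matrix proteoglycan that binds TGF-beta, 0.22 ± 0.24 (SE) with values on 4 cortisol arrays. FST (follistatin), which traps activin itself, had -0.20 ± 0.52 (SE) by one probe, with values on 4 control and 3 cortisol arrays, and -0.05 by the other. It was added to the genes named here after its values were seen. The 6 target genes split evenly, 3 higher and 3 lower, with a median of -0.00. MYC, a growth regulator that TGF-beta represses in many cells, had 0.54 ± 0.21 (SE) and 0.54 by its second probe, the 1 gene at an unadjusted p under 0.05. SNAI1, a transcription factor of mesenchymal change, had -0.13 ± 0.16 (SE) and 0.22 by its other probe, and the collagen gene COL1A2 had -0.14 ± 0.20 (SE).

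**Figure D5:**
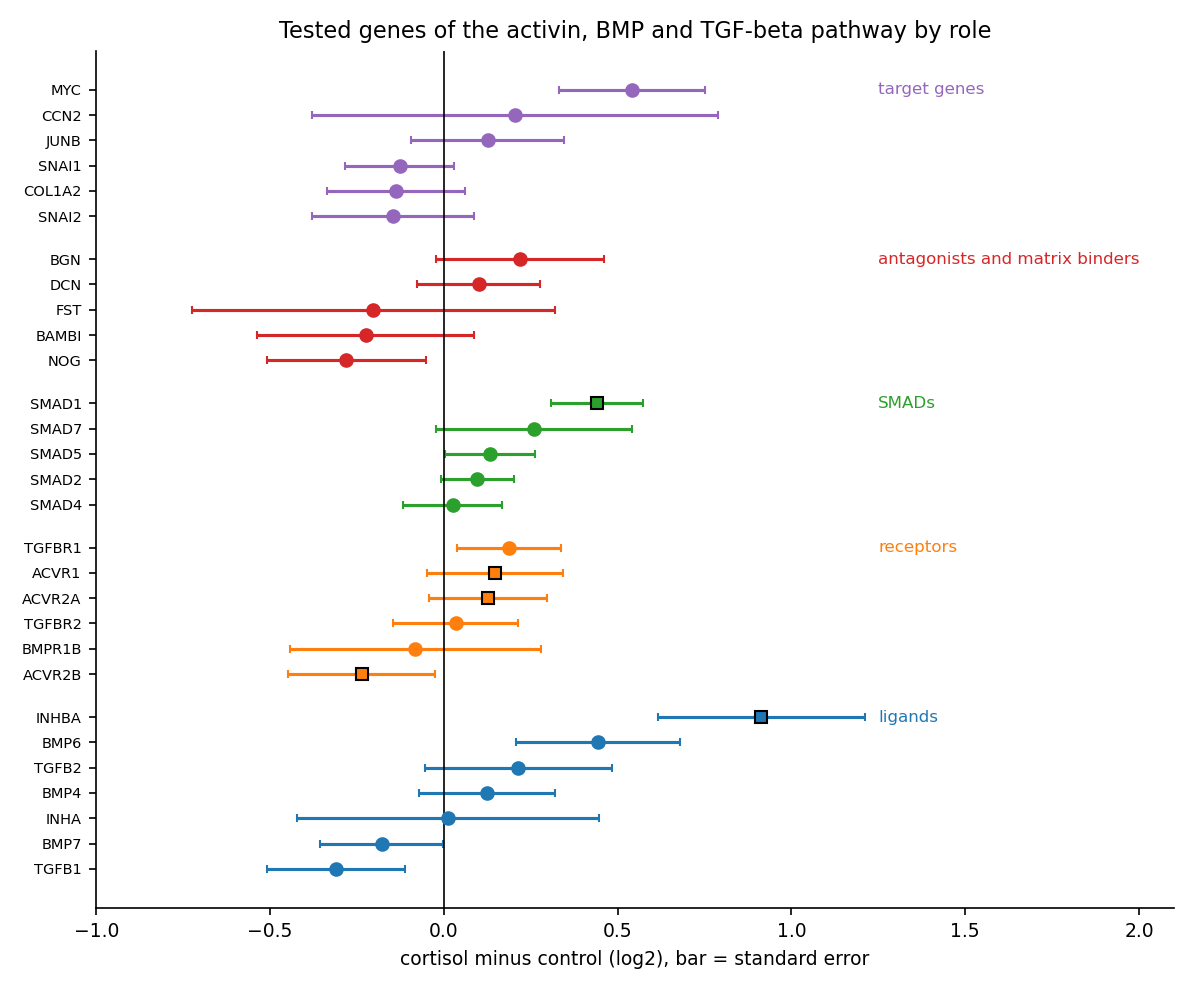
Cortisol minus control difference (log2, bars are the SE of limma) of each tested pathway gene, grouped by role; outlined squares are INHBA, ACVR1, ACVR2A, ACVR2B and SMAD1. INHBA at 0.91 lies farthest from 0, the other SMADs lie between 0.02 and 0.26, and antagonists fall on both sides of 0.

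Cell type markers were set beside these values. Genes listed as cardiac muscle markers were bright in both groups, with mean levels of 7.68 to 7.99 in controls and 7.59 to 7.96 with cortisol. All 4 tested (MYH7, TPM1, CRYAB and MB) had a slightly lower mean with cortisol, median -0.11, but the TPM1 probe lies in the area of lost signal and went from -0.16 to 0.03 without it. On 0 of 10 arrays did a probe of the fast skeletal myosins MYH1 and MYH2 or of the myoblast factor MYF5 stand well above background. TNNC2 and PYGM, also of the skeletal list, were so on 10 of 10 arrays and the myogenic factor MYOD1 on 6. Their differences were 0.05 ± 0.16 (SE), -0.27 ± 0.25 (SE) and -0.59 ± 0.17 (SE), the last under an unadjusted limma p of 0.05. The MYOD1 probe was dim, with mean levels of -4.05 in controls and -4.64 with cortisol. Its other probe was well above background on 1 array and was not tested. Without a skeletal muscle array for comparison, neither the bright cardiac list nor the skeletal list separates heart from skeletal muscle here. Fibroblast markers had 3 of 5 higher with a median of 0.10, and endothelial markers 4 of 6 with a median of 0.11. Among the latter TEK had 0.58 ± 0.24 (SE) and TIE1 -0.53 ± 0.13 (SE), the latter with values on 3 cortisol arrays and -0.46 ± 0.13 (SE) by its second probe, with values on all 5. Both smooth muscle markers were higher, CNN1 by 1.01 ± 0.51 (SE) and MYLK by 0.32 ± 0.18 (SE), with mean levels of 2.19 to 2.68 in controls and 2.16 to 4.09 with cortisol. The macrophage marker CD14 had -0.00 ± 0.22 (SE). In limma 0 of these passed, and the part of cell composition in the INHBA and SMAD1 values was not tested.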

How the data were processed

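Spot intensities were made by the authors in Feature Extraction (Agilent, version 10.1.1.1), per the submitters' processing notes. Per the file headers, the deposited processed intensity was background-subtracted and detrended, not normalised between arrays. The authors' deposited value table is on a log2 scale. That scale was found from its values, which followed median spot intensity minus local background in rank (Spearman correlation 1.0); its array medians were 5.82 to 5.83, and its normalisation is not given in the sources used here.

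Of 15744 spots, 536 controls and all flagged spots were left out, spots of a probe were averaged, and log2 processed intensity, less each array's 75th percentile, was analysed in R 4.3.3 with limma 3.58.1 (lmFit, eBayes, Benjamini-Hochberg over all probes tested, threshold 0.05). A probe was tested where well above background on at least 5 of 10 arrays, giving 10261 with 1504 missing values. The brightest probe stood for a gene. Names covered 1657 probes, 12 of them named by hand after the files were seen. Pathway genes named are the 3 of smallest unadjusted p per list, and the 3 genes most alike to each member. SMAD4 and FST were named outside that rule, as were the genes named for dim probes. The members and gene lists were chosen with earlier results of these data known. Alternatives changed the background correction, scaling, filters, flagged spots, slides, variance model and arrays used, and no scaling between arrays was added after seeing the data. The code was tested on simulated data. No genome was used, so no coordinates are given.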

Additional observations from a re-analysis of the deposited data

Results flagged for a closer look

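In 4 of 53 groups of 5 values examined, 1 array lay well apart from the rest, and chance gives about 1 in 20. Each is set here against the other cortisol arrays, with the control range beside it. ACVR2B on cortisol replicate 4 had a level of -2.01 against -1.17 to -0.93, and its spot lies in the area of lost signal. Its control range was -1.23 to -0.69. The mean level of the ligand list was -0.15 on cortisol replicate 4, against -0.63 to -0.54, with -0.78 to -0.21 in controls. The mean level of the skeletal muscle markers was -1.32 on cortisol replicate 5, against -0.96 to -0.86, with -0.87 to -0.36 in controls. HBB, the red cell marker, was 1.99 on cortisol replicate 1, against 5.37 to 6.58, with 3.18 to 6.07 in controls.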

How the results depend on the processing

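Of 24 alternatives, 0 called any probe, pathway probes included, and in the 16 run on gene pairs 0 of 10 passed; both counts include leaving out each array. Leaving out arrays moved INHBA probe 1 between 0.74 and 1.08, ACVR1 probe 1 between 0.03 and 0.27, ACVR2A probe 1 between 0.02 and 0.22, ACVR2B between -0.31 and -0.04, SMAD1 between 0.37 and 0.50, and the median of the pathway probes between -0.02 and 0.05. SMAD1 was 0.19 with normexp, 0.21 in the authors' deposited table and 0.18 without scaling. ACVR2A probe 1 was -0.20 on slide 2 alone, and ACVR1 probe 1 -0.04 on slide 1 alone. Without scaling the pathway median was -0.24, with 6 probes higher and 34 lower, against 31 and 9 with normexp and 21 and 19 as reported. Normexp also raised the median of all tested probes, to 0.06. Of its 852 probes at an unadjusted limma p under 0.05, 781 were higher with cortisol. Without scaling, where the median of all tested probes was itself -0.26, ACVR2A probe 2 had -0.06, ACVR1 probe 2 -0.15, ACVR1 probe 1 -0.11 and ACVR2A probe 1 -0.13. ACVR1 probe 2 turned to -0.03 without control replicate 1 and to -0.02 without cortisol replicate 5.

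Same-numbered arrays were not taken as pairs, since their deviations correlated from -0.01 to 0.22 and not all above 0.1. They share a slide, as do other numbers, and 6 of 10 arrays correlated best with their own number, a hint from the data and not the design. With the replicate block 0 probes were called (394 unadjusted), INHBA stayed at 0.91, the pathway median at 0.02 and SMAD1 at 0.44, and ACVR2A probe 2 had 0.51. The 5 arrays per group and the dimness of SMAD1 and ACVR2A probe 2 limit the precision.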
